A study of Rattus norvegicus with 6 samples.

Results

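The ERK feedback genes described here are the phosphatases Dusp4, Dusp5 and Dusp6, the Sprouty genes Spry1, Spry2 and Spry4, the Sprouty relatives Spred1 and Spred2, and the transcription factors Etv4 and Etv5. They were taken by symbol from the deposited count table, where all 10 were present among 16849 genes, and 9 of them had enough counts to be tested. The cells were RSC96, an immortalised rat Schwann cell line labelled wild type, in 3 groups of 2 libraries each. PVDF@PDA cells had the piezoelectric material and PCL@PDA cells a non-piezoelectric one, both for 24 h in a hypoxia model made with macrophage-conditioned medium, and the third group was Control. The labels give Control no treatment and do not say whether it received that medium, so each difference from Control is a difference between whole conditions. A free-text label on the PCL@PDA libraries gives PVDF@PDA instead, and they were grouped by title and treatment. Each group has a library of batch 1 (replicate 1) and a library of batch 3 (replicate 3). A single cell line was used, and nothing says that the libraries came from separate cultures, so p-values measure only the spread between these libraries, which may be technical.

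Growth factor receptors switch on RAS, which activates the RAF, MEK and ERK kinases in turn, and active ERK induces its own inhibitors. Dusp6 removes the activating phosphates from ERK in the cytoplasm, Dusp5 does so in the nucleus, and Dusp4 is a nuclear phosphatase of ERK and related kinases. Sprouty and Spred proteins act upstream, where they restrain RAS and RAF activation, and Etv4 and Etv5 are ETS factors of the PEA3 group whose transcripts follow ERK activity. In Schwann cells this pathway carries signals of neuregulin and is active after nerve injury. Transcript levels of these genes are not a direct measure of ERK phosphorylation, which was not measured here.

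Promoters are shown for Dusp5, Spry4 and Spry2, which are 3 of the 4 members that passed the test against Control. The windows run from 250 bases before to 50 bases after a gene start and come from RefSeq (GRCr8, a newer build than that of the counts), in which 8 of the 10 members (all but Dusp4 and Etv4) matched with 9 windows. Capitals mark matches on either strand to the CIC octamer forms TGAATGAA and TGAATGGA, the ETS motif CCGGAAG and the cyclic AMP element TGACGTCA. They also mark the AP-1 motif TGANTCA, the hypoxia core ACGTG, the CArG box of serum response factor, and TGAATGG. Other forms of the CIC octamer were not searched, so the matches do not show which members lack one. A match on the opposite strand appears as its reverse complement. TGAATGG was added after the Spry4 sequence had been read, and it overlaps the octamer TGAATGGA. The Dusp5 window is chr1:262543524-262543823 (plus strand), the Spry4 window chr18:30702497-30702796 (minus strand), and the Spry2 windows, at 2 annotated starts, are chr15:89109793-89110092 and chr15:89111877-89112176 (minus strand).
Dusp5: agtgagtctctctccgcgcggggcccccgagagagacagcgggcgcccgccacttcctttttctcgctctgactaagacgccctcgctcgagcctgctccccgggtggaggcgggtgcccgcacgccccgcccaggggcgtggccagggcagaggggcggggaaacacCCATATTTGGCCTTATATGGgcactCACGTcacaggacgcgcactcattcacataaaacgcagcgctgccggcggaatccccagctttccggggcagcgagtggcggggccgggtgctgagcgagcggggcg
Spry4: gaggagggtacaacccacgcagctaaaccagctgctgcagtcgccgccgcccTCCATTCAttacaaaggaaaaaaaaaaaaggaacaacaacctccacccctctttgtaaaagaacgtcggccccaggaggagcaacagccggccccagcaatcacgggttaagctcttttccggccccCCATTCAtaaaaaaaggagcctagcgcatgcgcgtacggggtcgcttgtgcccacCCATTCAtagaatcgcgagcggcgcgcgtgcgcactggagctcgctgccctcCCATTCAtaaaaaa
Spry2, start at the lower coordinate: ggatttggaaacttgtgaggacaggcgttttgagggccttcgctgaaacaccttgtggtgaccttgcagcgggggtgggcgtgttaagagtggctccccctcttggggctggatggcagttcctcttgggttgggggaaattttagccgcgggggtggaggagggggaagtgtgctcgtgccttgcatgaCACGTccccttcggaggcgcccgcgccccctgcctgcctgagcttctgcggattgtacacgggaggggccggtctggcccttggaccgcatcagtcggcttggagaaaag
Spry2, start at the higher coordinate: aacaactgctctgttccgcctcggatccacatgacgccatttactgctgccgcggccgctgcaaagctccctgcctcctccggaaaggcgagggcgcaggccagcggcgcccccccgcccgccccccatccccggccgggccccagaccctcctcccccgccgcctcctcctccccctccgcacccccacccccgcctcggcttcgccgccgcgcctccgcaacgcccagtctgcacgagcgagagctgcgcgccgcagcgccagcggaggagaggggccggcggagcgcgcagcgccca

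Dusp5, which rose with both materials, has 2 CArG boxes side by side, at 82 to 73 and 72 to 63 bases before the start. At least 1 CArG box is found in 1.64% of 33469 rat promoter windows of the same length, and at least 2 are found in 7 windows, the Dusp5 one included. Spry4, which also rose, has 4 copies of TGAATGG in the same orientation, the first of them in an octamer TGAATGGA that 1.31% of the windows hold. TGAATGG is present at least once in 3.69% of windows, and the Spry4 window was the 1 window with 4 copies. The hypoxia core ACGTG occurs in Dusp5, the first Spry2 window and Etv5, against 19.3% of all windows. No member window held TGAATGAA (1.39% of windows), CCGGAAG (8.75%), TGACGTCA (1.83%) or TGANTCA (7.33%). These matches describe letters in a short window and say nothing about binding.

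Between 32760123 and 35389307 reads were counted per library, and 13018 genes were tested. Libraries of a group differed by a chi-square of 4.80 (PVDF@PDA), 10.2 (PCL@PDA) and 5.56 (Control) per degree of freedom over the genes compared. None matched another within sampling noise. PCL@PDA replicate 3 stood apart from the other material libraries (12.5 and 12.8 against those of PVDF@PDA). PCL@PDA replicate 1 gave 4.42 against PVDF@PDA replicate 1 and 5.28 against replicate 3, about as much as the PVDF@PDA libraries differed from each other. Several markers that define Schwann cells were near 0. S100b, Mbp, Ngfr, Gfap and Cdh19 were below 1 CPM (counts per 1e+06, with library sizes scaled by TMM) in every library. Sox10, also among the 14 Schwann markers listed, was not found in the count table, which holds no gene without counts. Whether it was missing from the cells or from the annotation was not tested. Ncam1 (101 to 138 CPM) and Pmp22 (41.9 to 56.6) were present. The 13 Schwann markers in the table summed to 236 to 239 CPM with PVDF@PDA, 227 to 231 with PCL@PDA and 194 to 206 in Control. The 10 macrophage markers in the table summed to 7.96 to 8.21 CPM with PVDF@PDA, 6.66 to 8.16 with PCL@PDA and 7.23 to 7.58 in Control, mostly from Cd14, with the leukocyte antigen Ptprc at 0 to 0.0287. Of the fibroblast markers, Col1a2 (602 to 674 CPM) and Thy1 (147 to 170) were abundant in every group. Dcn, Postn and Col3a1 were below 1 CPM in every library. The list also held perineurial markers, Slc2a1 among them. Its 9 genes in the table summed to 1086 to 1104 CPM with PVDF@PDA, 1107 to 1158 with PCL@PDA and 1070 to 1096 in Control. Slc2a1 gave 275 to 277 CPM of that with PVDF@PDA, 293 to 321 with PCL@PDA and 214 to 235 in Control. It was higher than in Control (log2 0.30 with PVDF@PDA and 0.45 with PCL@PDA), so the sum does not follow fibroblast genes alone. Within that sum Col1a1 was higher than in Control (log2 0.68 with PVDF@PDA and 0.71 with PCL@PDA) and Col1a2 lower (-0.15 and -0.14). The part of these marker shifts in the results below was not tested, and fewer cells of a type cannot be told apart from less RNA per cell.

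Per gene length, Dusp5 and Dusp6 were the most abundant of the 10 genes in each group. In FPKM, the authors' fragment counts scaled by gene length and library total, Dusp5 lay at 109 ± 6.60 with PVDF@PDA, 120 ± 9.19 with PCL@PDA and 93.9 ± 3.75 in Control (SD, n = 2 each). Dusp6 lay at 80.4 ± 0.794 FPKM for PVDF@PDA, 80.9 ± 0.408 for PCL@PDA and 80.8 ± 3.77 for Control. Both phosphatase levels were above those of at least 92.6% of tested genes in each group. Spry2 followed at 33.4 ± 1.45 FPKM with PVDF@PDA, 34.4 ± 0.541 with PCL@PDA and 39.7 ± 1.11 in Control. Etv5 had mean levels of 27.1 FPKM for PVDF@PDA, 27.9 for PCL@PDA and 27.9 for Control, and its neighbour Etv4 of 25.8 for PVDF@PDA, 26.9 for PCL@PDA and 27.9 for Control. The libraries of these factors overlapped in PCL@PDA and in Control. Dusp4 had mean levels of 14.1 FPKM for PVDF@PDA, 14.5 for PCL@PDA and 16.7 for Control, and Spred2 of 13.5 for PVDF@PDA, 12.9 for PCL@PDA and 10.5 for Control, with overlap in PVDF@PDA. Spred1 had mean levels of 8.15 FPKM for PVDF@PDA, 7.75 for PCL@PDA and 7.70 for Control. Spry4 was far lower, at 2.52 ± 0.349 FPKM for PVDF@PDA, 2.43 ± 0.201 for PCL@PDA and 1.53 ± 0.0304 for Control, a level between percentile 23.9 and percentile 29.2 of tested genes. The other neighbours in this order did not overlap between libraries of a group. The Sprouty genes thus ranged from Spry2, next after Dusp6, to Spry1 at the limit of detection.

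**Figure D1:**
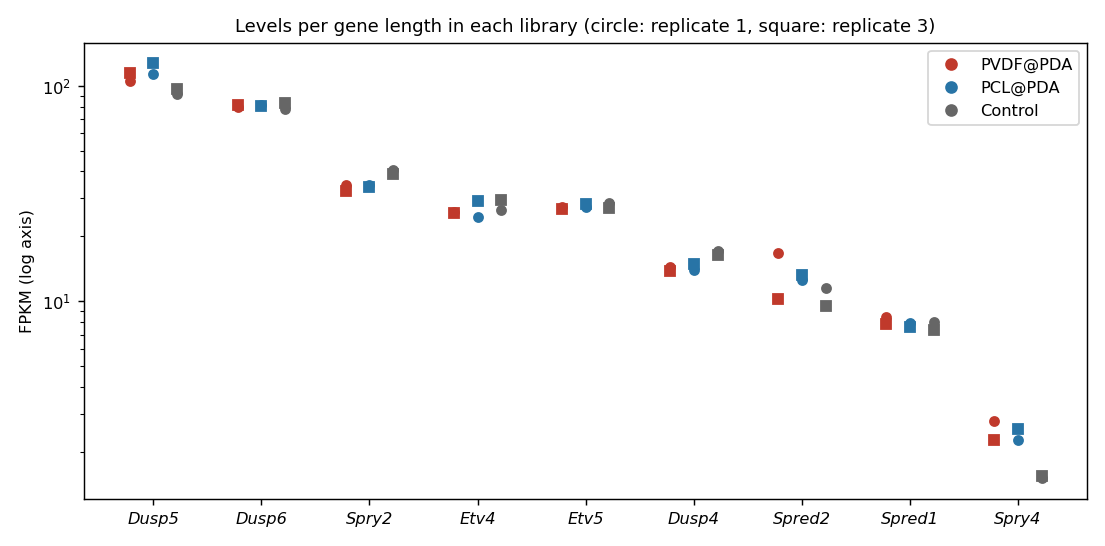
Level per gene length of the 9 tested members in each library (FPKM, log axis), in the order of their Control level, with PVDF@PDA, PCL@PDA and Control from left to right for each gene. Dusp5 and Dusp6 lie highest in every library and Spry4 lowest, with Control below both materials for Dusp5 and Spry4 and above them for Spry2 and Dusp4.

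Whether feedback genes shift in cells under the hypoxia model with either material was read from each material group against Control. The feedback genes split: Dusp5 and Spry4 were higher than in Control with each material, Dusp4 and Spry2 were lower, and Dusp6, Spred1, Spred2, Etv4 and Etv5 did not pass the test. With PVDF@PDA, 4 of 9 tested members passed edgeR's quasi-likelihood test at an adjusted p below 0.05 over all genes, 2 higher and 2 lower, where 15.7% of all tested genes passed (6.79% higher and 8.9% lower). With PCL@PDA, again 4 of 9 passed, 2 higher and 2 lower, where 20.1% of all tested genes passed (8.77% higher and 11.3% lower). Both comparisons use the same Control libraries, so they are not independent of each other. The median log2 difference of the 9 members was -0.04 with each material, against 0.01 over all tested genes. Groups did not overlap for 6 of 9 members with PVDF@PDA (58.5% of all tested genes) and for 5 of 9 with PCL@PDA (56.2%). Both counts were near the background share. When only library totals were used for scaling, the called genes split into 1164 higher and 879 lower with PVDF@PDA (884 and 1158 with TMM) and 1482 and 1070 with PCL@PDA (1142 and 1474 with TMM), and the members still split into 2 higher and 2 lower.

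**Figure D2:**
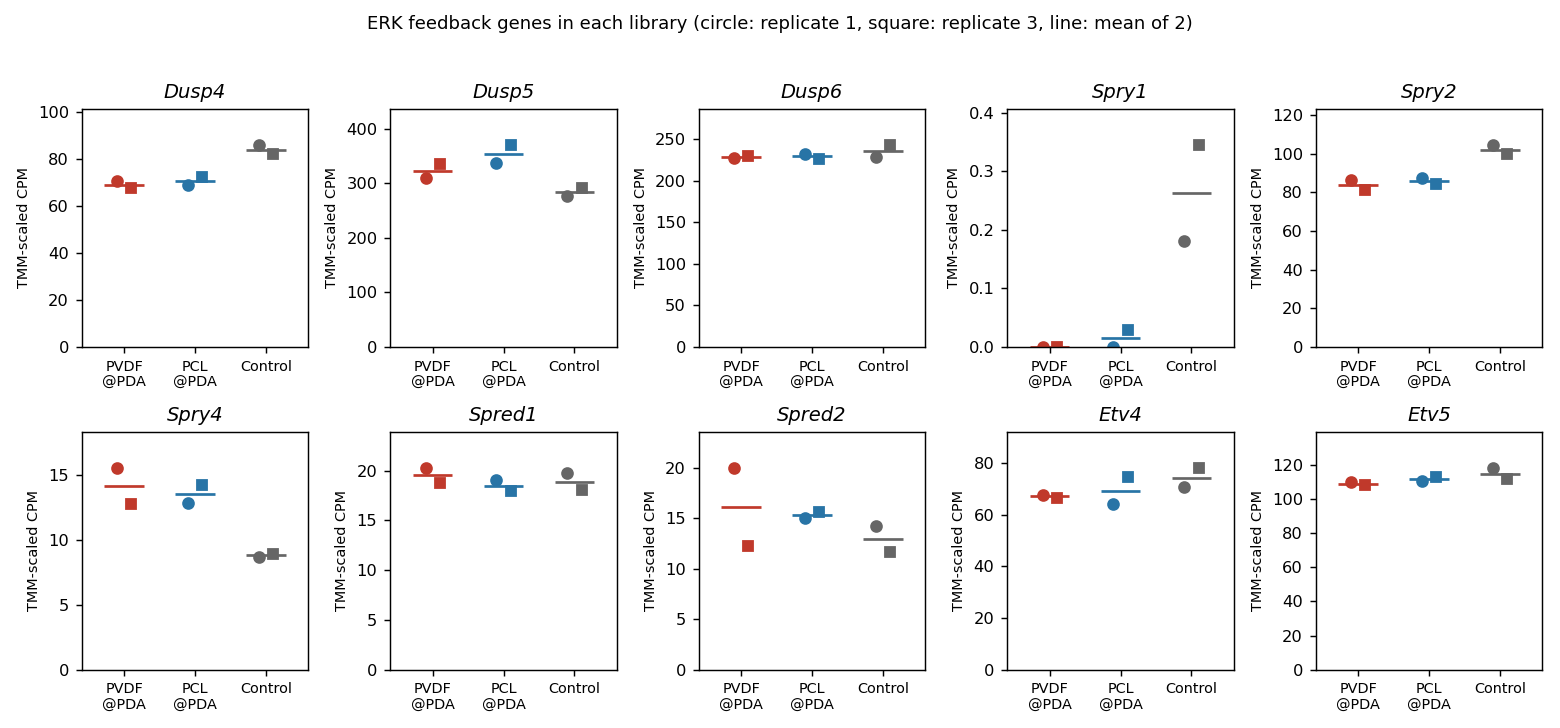
TMM-scaled CPM of each of the 10 members in the 6 libraries, with PVDF@PDA left, PCL@PDA in the middle and Control right in each panel and lines at the mean of 2 libraries. All 4 material libraries lie above both Control libraries for Dusp5 and Spry4 and below both for Dusp4, Spry2 and Spry1, while those of Dusp6 lie among them.

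Among the phosphatases, Dusp5 rose, Dusp4 fell and Dusp6 did not pass the test. Dusp5 (gene ID 171109) had 309 and 336 CPM with PVDF@PDA and 337 and 370 with PCL@PDA, against 277 and 291 in Control. All 4 material libraries were above both Control libraries. The log2 difference from Control was 0.18 with PVDF@PDA (SE 0.06, adjusted p = 0.0157) and 0.31 with PCL@PDA (SE 0.06, adjusted p = 2.18e-05), changes of 13.6% and 24.3%. The differences within batch 1 and batch 3 were 0.16 and 0.21 with PVDF@PDA and 0.28 and 0.34 with PCL@PDA. A long non-coding RNA is annotated on the strand opposite Dusp5 in GRCr8, and the counting strand is not given in the sources used here.

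Dusp4 (gene ID 60587) moved the other way, with 70.4 and 67.4 CPM for PVDF@PDA and 68.8 and 72.3 CPM for PCL@PDA, against 85.7 and 82.0 CPM in Control. The material libraries did not overlap with Control. The log2 difference was -0.28 with PVDF@PDA (SE 0.07, adjusted p = 0.00252) and -0.25 with PCL@PDA (SE 0.07, adjusted p = 0.00673), percent changes of -17.8 and -15.9. Within batches the differences were -0.28 in both with PVDF@PDA, and -0.32 and -0.18 with PCL@PDA.

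Dusp6 (gene ID 116663), the cytoplasmic ERK phosphatase often used as a readout of ERK activity, had 227 and 230 CPM in PVDF@PDA cells and 232 and 226 in PCL@PDA cells, against 228 and 243 in Control. These ranges overlapped. Its log2 difference was -0.04 with each material, with 95% intervals of -0.15 to 0.07 for both, and the adjusted p was 0.667 with PVDF@PDA and 0.681 with PCL@PDA.

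Of the Sprouty genes, Spry4 rose and Spry2 fell. Spry4 (gene ID 291610), an inhibitor that acts on RAS activation, had 15.6 and 12.8 CPM in PVDF@PDA cells and 12.9 and 14.2 in PCL@PDA cells, against 8.73 and 8.92 in Control. All 4 material libraries lay above both Control libraries. The log2 difference was 0.68 with PVDF@PDA (SE 0.15, adjusted p = 0.000675) and 0.62 with PCL@PDA (SE 0.15, adjusted p = 0.00168). These were the largest differences among the 9 tested members, 60.4% and 53.6% above Control. Within batches 1 and 3 they were 0.84 and 0.52 with PVDF@PDA and 0.56 and 0.67 with PCL@PDA.

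Spry2 (gene ID 306141), which restrains signalling by growth factor receptors, had 86.4 and 81.0 CPM in PVDF@PDA cells and 87.3 and 84.0 in PCL@PDA cells, against 104 and 99.7 in Control. All 4 material libraries were below both Control libraries. The log2 difference was -0.29 with PVDF@PDA (SE 0.07, adjusted p = 0.00124) and -0.25 with PCL@PDA (SE 0.07, adjusted p = 0.00377), and within batches it lay between -0.30 and -0.25.

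Spry1 (gene ID 294981) was barely detected and was too low to be tested with all 6 libraries. It had 0 and 0 counts with PVDF@PDA and 0 and 1 with PCL@PDA, against 6 and 12 in Control. For PVDF@PDA, Spry1 in Control was 5.76-fold above a floor of 3 counts over the group. That figure leaves out the counting error of Control and is not an interval. With PCL@PDA the ratio to Control was 0.0567, with an exact counting interval of 0.00136 to 0.359. This interval covers counting error only. In a fit with no filter on low counts Spry1 did not pass (adjusted p = 0.0900 with PVDF@PDA and 0.198 with PCL@PDA). It also entered the 4 fits that left out a material library. There it passed with PVDF@PDA without PCL@PDA replicate 1 (0.0492) and not in the other 3 (0.0529 to 0.267), and it did not pass with PCL@PDA (0.126 to 0.337).

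Spred1 and Spred2, membrane-bound inhibitors that bring the RAS GTPase-activating protein neurofibromin to RAS, did not pass the test. Spred1 (gene ID 296072) had 20.3 and 18.8 CPM in PVDF@PDA cells and 19.01 and 17.95 in PCL@PDA cells, against 19.74 and 18.05 in Control. The groups overlapped, and a pseudogene is annotated over Spred1 in GRCr8. The log2 difference was 0.05 with PVDF@PDA (95% interval -0.19 to 0.29) and -0.03 with PCL@PDA (-0.27 to 0.21). Spred2 (gene ID 305539) had 20.0 and 12.3 CPM in PVDF@PDA cells and 15.1 and 15.6 in PCL@PDA cells, against 14.2 and 11.7 in Control. The PVDF@PDA pair was spread more widely than any other pair of this gene and its lower library fell between those of Control. The log2 difference of Spred2 was 0.32 with PVDF@PDA (95% interval -0.01 to 0.65, adjusted p = 0.199) and 0.25 with PCL@PDA (-0.08 to 0.58, adjusted p = 0.325). Without PVDF@PDA replicate 3 the first became 0.62 and passed (adjusted p = 0.00619), and without PVDF@PDA replicate 1 it was -0.08, so that value rests on which library is kept.

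Both PEA3 factors were also below the threshold. Etv4 (gene ID 360635) had 67.60 and 66.35 CPM in PVDF@PDA cells and 63.9 and 74.6 in PCL@PDA cells, against 70.5 and 78.0 in Control. The PVDF@PDA libraries lay just below both Control libraries, while the PCL@PDA ones overlapped with them. The log2 difference was -0.15 with PVDF@PDA (95% interval -0.30 to 0.00, adjusted p = 0.182) and -0.10 with PCL@PDA (-0.25 to 0.05, adjusted p = 0.390). Leaving out PCL@PDA replicate 3, the library that stood apart, made Etv4 lower than Control with PCL@PDA (log2 -0.22, adjusted p = 0.0387), whereas leaving out replicate 1 of that group gave 0.0064. Etv5 (gene ID 303828) had 110 and 108 CPM in PVDF@PDA cells and 110 and 113 in PCL@PDA cells, against 118 and 112 in Control. Its log2 difference was -0.08 with PVDF@PDA (95% interval -0.20 to 0.05) and -0.04 with PCL@PDA (-0.16 to 0.08).

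**Figure D3:**
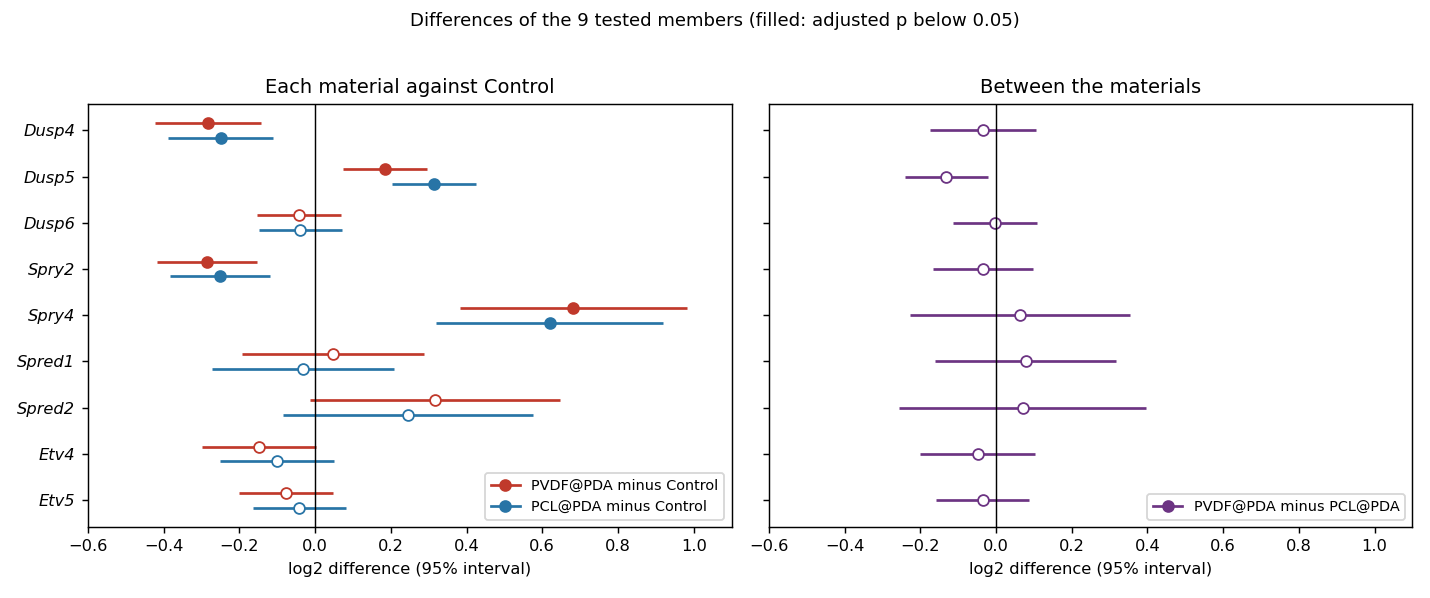
Log2 differences of the 9 tested members with 95% intervals, with each material against Control in the left panel and PVDF@PDA against PCL@PDA in the right one, and filled points for an adjusted p below 0.05. Dusp5 and Spry4 lie right of 0 and Dusp4 and Spry2 left of it with both materials, and no point is filled between the materials.

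The 4 calls kept their direction in every alternative that was run, and which of them passed depended on the libraries included. All 4 passed with both materials in each of the 8 alternatives of scaling, filter, tool, batch term and fit. Without PVDF@PDA replicate 3, Dusp5 (log2 0.12, adjusted p = 0.376), Dusp4 (-0.26, 0.0714) and Spry2 (-0.24, 0.0687) no longer passed with PVDF@PDA. Without PVDF@PDA replicate 1, Spry4 no longer passed with that material (0.53, 0.0620). Without Control replicate 1, Dusp5 (0.15, 0.231) and Dusp4 (-0.25, 0.0700) did not pass with PVDF@PDA, and Dusp4 (-0.22, 0.120) and Spry2 (-0.22, 0.0937) did not pass with PCL@PDA. Dusp5 and Spry4 passed with PCL@PDA whichever library was left out, at adjusted p of at most 0.00475 and 0.0219.

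**Figure D4:**
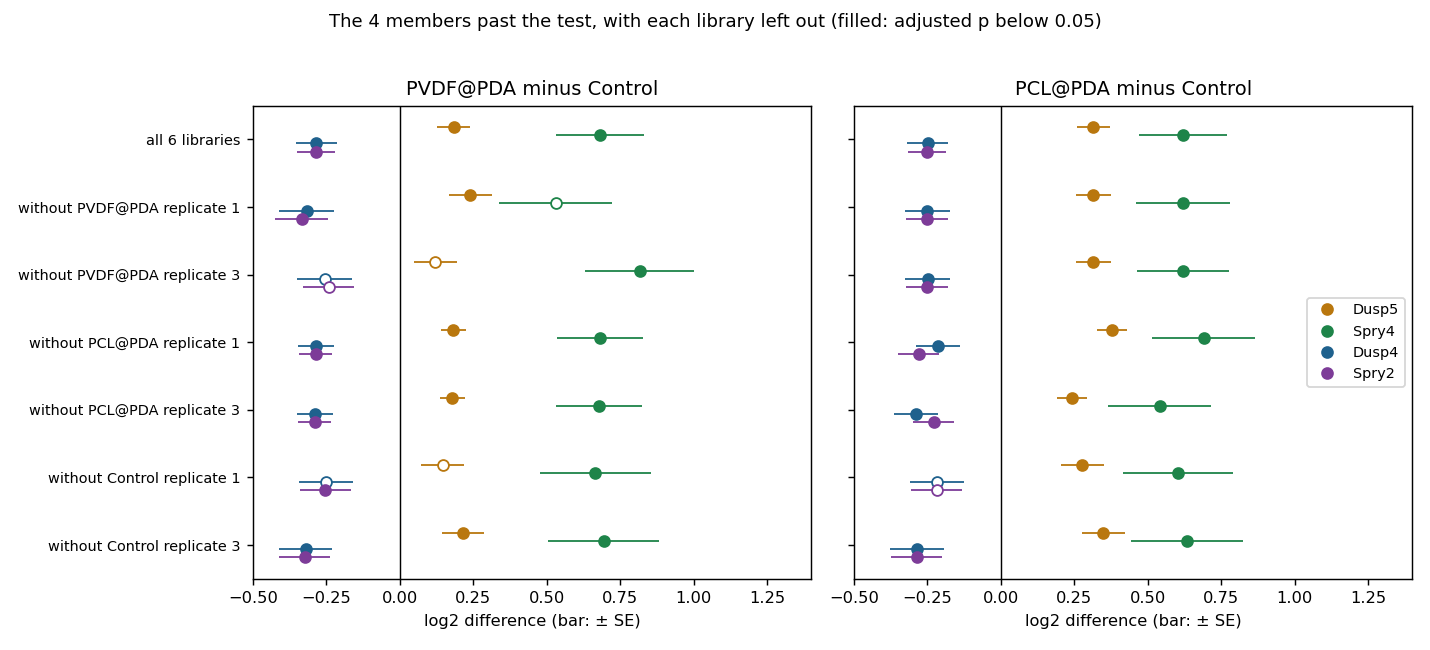
Log2 difference from Control with its SE for Dusp5, Spry4, Dusp4 and Spry2, with all 6 libraries (top row) and with each library left out, and filled points for an adjusted p below 0.05. Open points for PVDF@PDA stand in the rows without either of its own libraries and without Control replicate 1, and for PCL@PDA in the row without Control replicate 1.

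Ratios between relatives within each library give the size of their unequal change. The Dusp5 to Dusp4 ratio of FPKM was 7.29 and 8.27 with PVDF@PDA and 8.13 and 8.48 with PCL@PDA, against 5.36 and 5.90 in Control. The Spry4 to Spry2 ratio of FPKM was 0.0804 and 0.0702 with PVDF@PDA and 0.0657 and 0.0755 with PCL@PDA, against 0.0373 and 0.0399 in Control. Neither ratio overlapped between materials and Control, which follows from the members' own values and is no further evidence. The Etv5 to Etv4 ratio did overlap, with means of 1.05, 1.04 and 1.00 for PVDF@PDA, PCL@PDA and Control. The Spred2 to Spred1 ratio was 1.97 and 1.31 with PVDF@PDA and 1.58 and 1.74 with PCL@PDA, against 1.44 and 1.29 in Control, and overlapped for PVDF@PDA.

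Setting PVDF@PDA against PCL@PDA compares a piezoelectric with a non-piezoelectric material, and no feedback gene passed there. The materials carry different polymer names, so polymer and piezoelectricity cannot be told apart. Of 9 tested members 0 passed edgeR's test, where 0.0615% of all tested genes did (0.0538% higher and 0.00768% lower), 0 passed in DESeq2, and 1 had an unadjusted p below 0.05, as did 8.49% of all tested genes, so 1 of 9 is near the background. That gene was Dusp5, lower with PVDF@PDA, and both of its PVDF@PDA libraries (309 and 336 CPM) were below both PCL@PDA libraries (337 and 370). The log2 difference of Dusp5 was -0.13 (95% interval -0.24 to -0.02, unadjusted p = 0.0211, adjusted p = 0.497), at -0.12 within batch 1 and -0.14 within batch 3. Without PCL@PDA replicate 1 it was -0.20 and passed (adjusted p = 0.00720), in a fit where 827 of all genes passed against 8 with all libraries. The other intervals were narrow for abundant members, at -0.11 to 0.11 for Dusp6, -0.17 to 0.11 for Dusp4, -0.17 to 0.10 for Spry2, -0.16 to 0.09 for Etv5 and -0.20 to 0.10 for Etv4. They were wider for Spred1 (-0.16 to 0.32), Spry4 (-0.23 to 0.35) and Spred2 (-0.26 to 0.40), which had fewer counts. The materials did not overlap for Dusp5 and Etv5, or 2 of 9 members, against 38% of all tested genes. Spry4 was 0.27 higher with PVDF@PDA within batch 1 and 0.16 lower within batch 3 (log2 0.27 and -0.16), and Spred2 likewise (0.41 and -0.35).

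Other members of the same families included genes that differed from Control. Where 2 differences from Control are given together below, they are for PVDF@PDA and then PCL@PDA. The counts of calls below stand beside 15.7% of all tested genes called with PVDF@PDA and 20.1% with PCL@PDA. Of the 8 relatives with enough counts, PVDF@PDA cells had 1 higher and 2 lower than in Control, and PCL@PDA cells had 1 higher and 1 lower. Dusp1, a nuclear phosphatase of stress-activated kinases and ERK, had 133 ± 1.22 CPM in PVDF@PDA cells and 144 ± 11.2 in PCL@PDA cells, against 99.1 ± 1.99 in Control (log2 0.43 for PVDF@PDA and 0.54 for PCL@PDA, SE 0.06 each, adjusted p = 6.66e-07 and 1.25e-09). It passed whichever library was left out. Dusp16, a phosphatase of the JNK and p38 kinases, was lower (log2 -0.26 and -0.34, adjusted p = 0.0347 and 0.00339), but with PVDF@PDA it did not pass once any of the 4 libraries compared was left out (0.0792 to 0.266), with library totals alone (0.0788) or in DESeq2 with the batch term (0.0929), and with PCL@PDA it did not pass without Control replicate 3 (0.0707). Dusp10, another phosphatase of those kinases, was lower with PVDF@PDA (-0.39, adjusted p = 0.00905), though not without PVDF@PDA replicate 3 (0.109) or Control replicate 3 (0.133). With PCL@PDA Dusp10 differed by -0.27 (adjusted p = 0.0718, and 0.0485 with the batch term).

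Receptors upstream of ERK differed from Control in both directions, 2 higher and 2 lower of 10 tested with each material (3 to 5 calls over the alternatives). Erbb3, the neuregulin receptor of Schwann cells, fell to 10.7 ± 0.760 CPM in PVDF@PDA cells and 11.6 ± 0.646 in PCL@PDA cells, against 17.6 ± 0.199 in Control (log2 -0.72 and -0.61, SE 0.14, adjusted p = 0.000131 and 0.000849). The PDGF receptor Pdgfra was higher, at 30.0 ± 3.78 CPM in PVDF@PDA cells and 28.4 ± 0.509 CPM in PCL@PDA cells, against 19.1 ± 0.724 in Control (differences of 0.65 and 0.57 on the log2 scale, adjusted p = 9.86e-06 and 7.37e-05). Pdgfrb rose by 0.77 and 0.93 (adjusted p = 0.00786 and 0.000796), without a call with PVDF@PDA once PVDF@PDA replicate 3 (0.131) or Control replicate 1 (0.0931) was left out. The abundant receptor Axl fell by 0.23 and 0.18 on the log2 scale (adjusted p = 0.000377 and 0.00516, and 0.137 with PCL@PDA without Control replicate 3). Erbb3 is also on the Schwann marker list and Pdgfra on the fibroblast marker list.

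Among 13 growth factor ligands, calls against Control numbered 1 higher and 3 lower for PVDF@PDA, and 1 higher and 4 lower for PCL@PDA. Gdnf, a survival factor for neurons, fell by 0.43 and 0.44 (log2, adjusted p = 8.53e-06 and 4.21e-06) and the PDGF family member Pdgfc by 0.45 and 0.49 (1.03e-05 and 1.31e-06). Bdnf, a neurotrophin, fell by 0.23 and 0.24 (0.0131 and 0.00861), but not past the threshold with PVDF@PDA without PVDF@PDA replicate 3 (0.210), Control replicate 1 (0.0628) or Control replicate 3 (0.122), nor with PCL@PDA without Control replicate 3 (0.0876). Pdgfa was lower by 0.24 with PVDF@PDA (log2 -0.24, adjusted p = 0.0584, and 0.0290 with the batch term) and by 0.36 with PCL@PDA (log2 -0.36, 0.00302, and 0.0831 without Control replicate 3).

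For the 21 kinases and adaptors of the cascade itself the median log2 differences were -0.07 with PVDF@PDA and -0.05 with PCL@PDA. The calls were 1 higher and 4 lower for PVDF@PDA and 2 higher and 5 lower for PCL@PDA (1 to 8 calls for each material over the alternatives). Beside the genes described next, the receptor adaptor Frs2 was lower with both materials, and with PCL@PDA Rps6ka1 was higher and Rps6ka3 lower, and these were named after their values were seen. Map2k2, which encodes the ERK kinase MEK2, was at 22.1 ± 0.0439 CPM in PVDF@PDA cells and 27.7 ± 1.98 in PCL@PDA cells, against 30.5 ± 2.03 in Control (log2 -0.46, adjusted p = 0.000957, and -0.14, adjusted p = 0.385). The direct difference between the materials in Map2k2 did not pass (log2 -0.32, adjusted p = 0.398). Mapk3, which encodes ERK1, was higher with PCL@PDA (log2 0.23, adjusted p = 0.00521) and not past the threshold with PVDF@PDA (0.11, 0.233), and its call ended without PCL@PDA replicate 3 (0.102) or Control replicate 3 (0.103). The RAS exchange factor Sos2 was lower by 0.18 and 0.32 (log2 -0.18 and -0.32, adjusted p = 0.0392 and 0.000135), and with PVDF@PDA its adjusted p was 0.0654 to 0.233 in 7 of 14 alternatives. Nras was lower by 0.23 and 0.18 (log2 -0.23 and -0.18, adjusted p = 0.00756 and 0.0330). The Nras calls ended without either PVDF@PDA library or Control replicate 1 (0.0640 to 0.105 with PVDF@PDA) and in 8 of 14 alternatives with PCL@PDA (0.0516 to 0.231).

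Other ERK-responsive genes showed no common direction either. The 24 genes of that list gave 2 higher and 5 lower calls for PVDF@PDA and 7 higher and 5 lower for PCL@PDA, with 2 to 9 and 7 to 14 calls over the alternatives. Beside the genes described next, Jun was higher and Egr1, Ier3 and Hmga2 were lower with both materials, and these were named after their values were seen. Lif, a cytokine released by injured Schwann cells, fell to 67.8 ± 2.69 CPM in PVDF@PDA cells and 61.8 ± 0.882 in PCL@PDA cells, against 105 ± 1.86 in Control (log2 -0.63 and -0.76, adjusted p = 3.57e-10 and 8.12e-13). Phlda1 fell by 0.33 and 0.26 (adjusted p = 0.000260 and 0.00284). The zinc finger factor Klf10 rose by 0.20 and 0.23 (adjusted p = 0.00440 and 0.00103), not past the threshold without either PVDF@PDA library or Control replicate 1 (0.0635 to 0.108 with PVDF@PDA) or, with PCL@PDA, without Control replicate 1 (0.0504). The AP-1 subunit Fosl1 rose with PCL@PDA to 488 ± 24.9 CPM, against 410 ± 11.8 in Control (log2 0.25, adjusted p = 0.000254), and lay at 446 ± 5.84 CPM with PVDF@PDA (0.12, adjusted p = 0.105, and 0.0375 with the batch term).

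The 18 other negative regulators of receptors and RAS gave 0 higher and 2 lower calls for PVDF@PDA and 0 higher and 3 lower for PCL@PDA (up to 1 and 3 higher in the alternatives). Of all tested genes 15.7% passed with PVDF@PDA and 20.1% with PCL@PDA. The genes called lower code for RAS GTPase-activating proteins. Rasa2, Rasa3 and Dab2ip, which code for others of that kind, were not called. Their log2 differences were 0.11, 0.01 and 0.08 with PVDF@PDA and 0.10, -0.15 and 0.15 with PCL@PDA. Rasa1 fell to 211 ± 2.54 CPM in PVDF@PDA cells and 183 ± 14.3 in PCL@PDA cells, against 257 ± 1.65 in Control (log2 -0.28 and -0.49, adjusted p = 0.000183 and 1.91e-09). Rasal2 fell by 0.40 and 0.32 (adjusted p = 0.000955 and 0.00642, and 0.117 with PCL@PDA without Control replicate 3). Nf1, which encodes neurofibromin, the partner of the Spred proteins, was lower by 0.22 on the log2 scale with PCL@PDA (-0.22, adjusted p = 0.00460, and 0.0650 without Control replicate 1) and by 0.15 with PVDF@PDA (-0.15, adjusted p = 0.0683, and 0.0305 with the batch term). In the 6 pathway lists 0 genes passed between the materials.

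**Figure D5:**
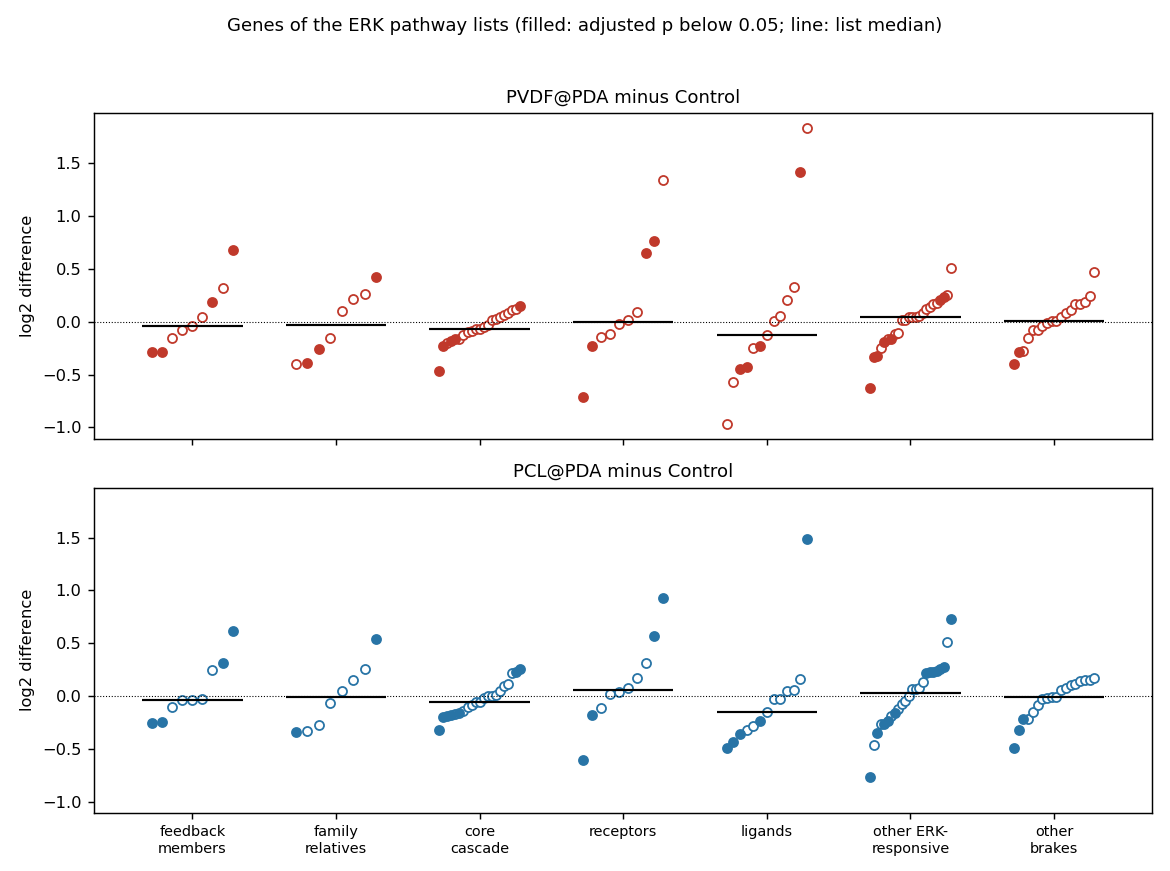
Log2 differences from Control of every tested gene in the 7 lists of the ERK pathway, with PVDF@PDA in the upper and PCL@PDA in the lower panel, filled points for an adjusted p below 0.05 and lines at list medians. In each list points lie on both sides of 0, and the list medians lie between -0.15 and 0.06.

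The genes whose profile over the 6 libraries was most like that of Spry4, among 1344 whose log2 CPM averaged 3 or more and spanned 0.5 or more, were Pepd (r = 0.992), Tfdp2 (0.988), Aif1l (0.987), Dixdc1 (0.984) and Zfp462 (0.983). Dusp6 varied by 0.10 log2 over the libraries, and the highest values for it were Prmt2 (r = 0.910), Melk (0.899), Mtg1 (0.885), Gba2 (0.878) and RGD1565033 (0.874). These Pearson values describe 6 libraries in 3 groups, which share their groups and batches, and carry no test.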

How the data were processed

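RNA sequencing was done on total RNA (column purification and DNase, per the labels) of 6 RSC96 libraries. The deposited table holds raw counts per gene, whole numbers with no normalization. The authors also deposited FPKM values for each library, used here only to compare levels between genes. They scale with count over gene length and library total: this held within 1e-05 for each of the 15690 genes that could be checked. The submitters' processing notes list DESeq2 1.4.5 and mRatBN7.2 (mRatBN 7.2) and give no role for them. Aligner, counter, annotation and strand: not given in the sources used here.

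The counts went into edgeR 4.0.16 under R 4.3.3, with TMM scaling and filterByExpr by group (13018 genes kept, 3831 removed). Group means of all 6 libraries were fitted by robust quasi-likelihood, with 3 residual degrees of freedom. The median prior degrees of freedom were 50.3, so the spread behind p-values and intervals was mostly borrowed across genes. Tests were two-sided, adjusted by Benjamini-Hochberg over all genes tested, and called below 0.05. The SE is the log2 difference divided by the square root of the F statistic. Alternatives were RLE scaling, library totals only, no filter, a non-robust fit, only the 4 libraries compared, DESeq2 1.42.0, a batch term in edgeR and in DESeq2, and each library left out. With a library left out, the lone library of its group is taken to vary like those of the other groups. In these libraries 3 counts equal 0.0848 to 0.0916 CPM.

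Replicate numbers 1 and 3 carry the batch in the labels, so they pair the libraries. Across genes, deviations from group means had r = 0.13 for PCL@PDA with Control, 0.04 for PVDF@PDA with Control and -0.02 for the material pair. The members, lists and alternatives were chosen with earlier results of these data known. All members were named, with up to 4 genes of smallest p per list among those past the test against Control, and exceptions are marked. Some genes of the lists are not reported here. Beside the members there were 145 genes in 9 lists, and 132 were in the table.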

Additional observations from a re-analysis of the deposited data

How the results depend on the processing

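Over the alternatives, the 4 members called against Control passed in 50 of 56 refits for PVDF@PDA and in 54 of 56 for PCL@PDA, and the exceptions each had a library left out. The batch term in edgeR, as a replicate block, changed no call of a member (4 called with each material, 0 between the materials) and, of the other named genes, only the calls given in the text, but between the materials it moved the genes called from 8 to 59, and in DESeq2 to 15. That fit had 2 residual degrees of freedom and infinite median prior degrees of freedom. Genes called between the materials also numbered 5 with library totals alone or in DESeq2 and 17 with no filter. With 1 library left out they ranged from 0 to 827, against Control from 1031 to 2869 with PVDF@PDA and from 1346 to 3173 with PCL@PDA. Members called then ranged from 2 to 5 with PVDF@PDA, from 2 to 5 with PCL@PDA and from 0 to 1 between the materials. Each fit with a library left out had fewer libraries, and the cause of these changes was not tested. Signs of uncalled differences near 0 turned. With library totals alone, PCL@PDA against Control gave 0.0029 for Dusp6, 0.011 for Spred1 and 0.00095 for Etv5. With a library left out, PVDF@PDA against Control ranged from -0.022 to 0.11 for Spred1 and from -0.078 to 0.62 for Spred2. PCL@PDA against Control ranged from -0.083 to 0.0018 for Dusp6, from -0.098 to 0.033 for Spred1 and from -0.22 to 0.0064 for Etv4. PVDF@PDA against PCL@PDA ranged from -0.069 to 0.0023 for Dusp4, from -0.020 to 0.014 for Dusp6, from -0.083 to 0.0091 for Spry2, from -0.089 to 0.20 for Spry4, from -0.32 to 0.38 for Spred2 and from -0.16 to 0.067 for Etv4. Depth limits Spry1, at 0 to 12 counts per library.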
